A study of Mus musculus with 8 samples.

Results

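Cyclic nucleotide phosphodiesterases (PDEs) are the enzymes that break down cAMP and cGMP, the second messengers made by adenylyl and guanylyl cyclases after receptors or nitric oxide signal to a cell. By removing these messengers, PDEs end signalling through protein kinase A, protein kinase G and other effectors, and they differ in which messenger they accept. PDE4 enzymes degrade cAMP and are the target of roflumilast, a drug used in chronic obstructive pulmonary disease (COPD). In endothelium, cAMP is known to tighten the barrier, and in smooth muscle both messengers relax the vessel or airway wall.

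Expression of 9 PDE genes, of 33027 genes measured, was examined in single cells of the mouse lung. They were Pde4a, Pde4b, Pde4d, Pde3a, Pde3b, Pde5a, Pde1a, Pde7b and Pde8a. The list was set by name, but it was chosen by a measured value, the higher level of Pde4d in general capillary endothelial cells (gCap) of mice exposed to smoke. All comparisons of smoke with room air in gCap cells are therefore given as descriptions with no test.

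The study exposed littermate Sftpc-CreERT2-mTmG mice on the C57BL/6 background to cigarette smoke (CS, n = 4) or room air (RA, n = 4) for 10 months. All 8 mice, controls included, carried the Cre transgene driven by Sftpc, a gene of alveolar type 2 (AT2) cells, and the red-to-green mTmG reporter, and all received tamoxifen at 8 to 10 weeks of age. Immune cells were partly depleted from the digested lungs before sequencing, so the shares of cell types do not mirror the tissue. Mice are numbered below as CS mice 1 to 4 and RA mice 1 to 4.

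A total of 40074 cells in 32 cell types were used, after 1025 multiplets and 7 cells labelled cell cycle were left out, and each mouse gave between 2553 and 6371 cells with a median of 4254 to 6473 transcripts per cell. Before these were left out, the 41106 deposited cells had 40909 distinct barcodes, of which 197 were found in at least 2 libraries. The sex labels did not match sex-linked transcripts in any of the 4 CS libraries. Xist, which the inactive X chromosome transcribes, was at 7.83 and 8.34 transcripts per 10,000 in the 2 CS mice labelled male and at 0.0421 and 0.0156 in the 2 labelled female, while the 4 RA libraries matched their labels. Every CS library is affected, so no comparison can be made without them, and the comparisons below rest on the exposure label alone.

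The level of a gene is given throughout as transcripts per 10,000, averaged over the cells of a type in each mouse, with the mean ± SD over mice. The log2 difference is CS minus RA on log2(level + 1), which understates the change of genes at low level. It was tested with limma in 22 cell types that had at least 20 cells in at least 3 mice per group, over genes seen in 10% or more of cells in CS or RA mice. Adjusted p values are Benjamini-Hochberg values over all genes of a type, with 0.05 as the threshold.

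The labels of the endothelial types were checked against marker genes. Gpihbp1, Plvap, Cd93 and Aplnr were highest in gCap cells among all types, while Ptprb was higher in arterial endothelial cells (30.1) than in gCap cells (26.2). Car4, Ednrb and Apln were highest in aerocytes, the large capillary cells that face the alveolus, while Tbx2 was higher in pericytes (14.7) than in aerocytes (8.28). Gja5, Gja4 and Dkk2 were highest in arterial endothelial cells, but Bmx was highest in basal cells.

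Each gene had its own distribution over the lung. Pde4d, which encodes a cAMP-specific enzyme, was highest in epithelium, at 18.0 ± 3.10 in ciliated cells, 16.2 ± 2.49 in AT2 cells and 13.4 ± 2.71 in club cells, the secretory cells of the airway (n = 8 mice each). The gap between ciliated and AT2 cells was smaller than the larger of their SDs over mice, whereas that between AT2 and club cells was larger. Next came cells labelled mast cells at 10.3 and goblet cells at 9.39, a gap smaller than the larger of their SDs. The level of Pde4d in gCap cells was 4.33 over the 8 mice, the seventh level in order among tested types, close to alveolar fibroblasts at 4.37.

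Pde4b, another cAMP-specific PDE4 gene and one prominent in inflammatory cells, was highest in neutrophil granulocytes at 21.8 ± 2.86. It was followed by aerocytes at 10.6 ± 1.94 and B cells at 8.45, and each of these gaps exceeded the larger SD. Among tested types, Pde4a was highest in alveolar fibroblasts at 2.36 ± 0.798 and arterial endothelial cells at 1.57, a gap smaller than the larger SD.

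Pde3a, a cAMP-hydrolysing enzyme that cGMP inhibits, was highest in blood vessel endothelium other than aerocytes. It reached 18.9 ± 6.03 in arterial, 15.7 ± 5.66 in venous and 15.4 ± 4.75 in gCap cells. Gaps between neighbours in this order were smaller than the larger SD, which spans CS and RA mice together. Within every mouse, however, the arterial level was above the gCap level, and in most mice it was above the venous level. Aerocytes were far below at 1.35 ± 0.286. Pericytes, with too few cells for a test, ranged from 7.27 to 15.5. Its close relative Pde3b, known for insulin action in fat cells, was instead highest in lymphocytes, at 8.77 ± 1.32 in B cells, 6.38 ± 0.846 in T cells and 4.86 in NK and cytotoxic T cells.

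Pde5a, which degrades cGMP and is the target of sildenafil, was highest in pericytes, the contractile cells that wrap capillaries, at 37.4 ± 12.6 over 8 mice, some with few of these cells. Among tested types it led in peribronchial fibroblasts at 2.11 ± 0.688 (n = 6). Pde1a, which is activated by calcium and calmodulin, also led in peribronchial fibroblasts at 5.66 ± 3.08 (n = 6), ahead of aerocytes at 1.85 ± 0.451. The cAMP-specific Pde7b was highest in neutrophil granulocytes at 15.3 ± 2.81 and then in lymphatic endothelial cells at 6.29 ± 1.59. Pde8a, a cAMP-specific enzyme that standard PDE inhibitors do not block, was highest in lymphatic endothelial cells at 2.52 ± 0.527, followed by non-classical monocytes at 1.92 (n = 7).

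**Figure D1:**
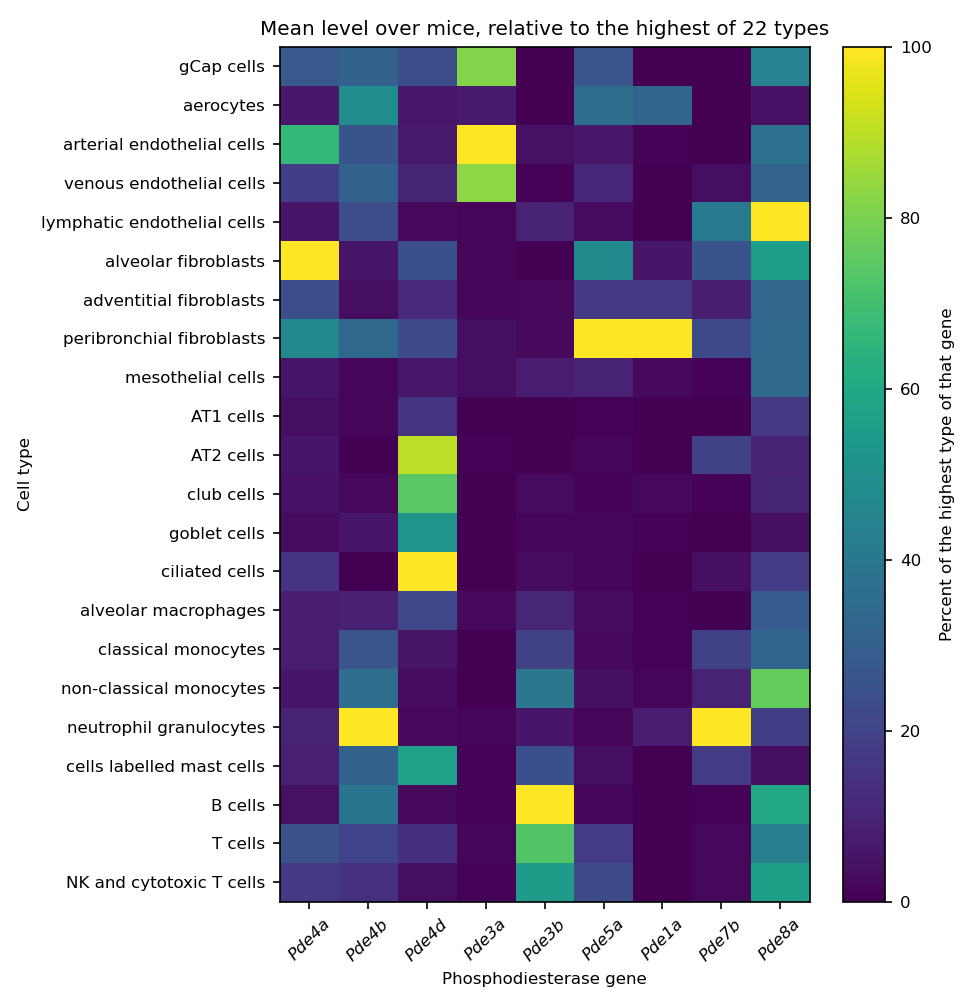
Mean level of each of the 9 genes (columns) in 22 cell types (rows), as a percent of the level in that gene's own highest type among those shown, averaged over mice with at least 20 cells. Pde3a is bright in gCap, arterial and venous cells, Pde4d in ciliated, AT2 and club cells, Pde4b and Pde7b in neutrophil granulocytes, and Pde3b in lymphocytes.

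The genes whose levels followed a member most closely over the 22 types were sought by Pearson's r of log2(level + 0.1), among genes whose level in their own highest type was at least 1. The points are means over the same 8 libraries. For Pde3a these were Bmp6 (r = 0.97), Clec14a (0.96) and Tspan7 (0.94), and for Pde3b they were 4933406I18Rik (0.95), Ikzf1 (0.91) and Pik3cd (0.89). For Pde4b they were Tbk1 (0.86), Srgn (0.84) and Elmo1 (0.83), and for Pde4d Gclc, Map7 and Tbcel (0.79, 0.78 and 0.78). The closest genes to the remaining members were Spon1 for Pde4a (0.81), Bcas3 for Pde5a (0.81), Mdk for Pde1a (0.86), Dgat2 for Pde7b (0.79) and Zbtb2 for Pde8a (0.86).

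Some PDE genes are known to be induced by cAMP through the factor CREB, which binds the palindrome TGACGTCA or its shorter form TGACG. Promoter windows of 300 bases (RefSeq, GRCm38.p6) were at hand for 7 of the 9 genes, Pde3a and Pde3b having none, and were searched for both motifs on both strands. The palindrome is in 1.79% of 32851 windows of all genes and in none of the 15 windows of the members. The shorter form is in 20.8% of all windows and in 4 of those 15, belonging to 4 genes. It is shown with its flanks, 5′ to 3′ on the strand of the gene, where capitals mark the motif (CGTCA is TGACG read on the other strand). The window of Pde4d holds neither motif, and it is the only window for a gene with 20 annotated transcripts. A match is a description of the letters and no evidence of binding.
Pde4a (chr9:21184039-21184068, plus strand): ggcacagctcgaCGTCAggctggggaggag
Pde4b (chr4:102421509-102421538, plus strand): gatttggctgcaCGTCAattttctcatctg
Pde1a (chr2:80039051-80039080, minus strand): gtaacttcagccCGTCAttcctcagtaatt
Pde8a (chr7:81213169-81213198, plus strand): gctgctttgcatTGACGccagcagccgctg

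In gCap cells, the comparison behind the choice of these genes, Pde4d was about 2.0 times as high in CS as in RA mice. Its levels were 6.80, 5.24, 5.36 and 5.66 in CS mice 1 to 4 and 1.74, 2.94, 3.81 and 3.05 in RA mice 1 to 4. Every CS mouse lay above every RA mouse, and the means were 5.77 ± 0.713 and 2.89 ± 0.855, a log2 difference of 0.82 (SE 0.159). With each mouse left out in turn, the log2 difference stayed between 0.67 and 0.94.

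Pde3a showed the same separation in gCap cells. It was at 22.4, 18.0, 17.0 and 17.8 in the CS mice and at 6.24, 13.3, 13.3 and 14.8 in the RA mice. The log2 difference of 0.67 (SE 0.230) was 0.42 without RA mouse 1, which had the lowest level, and 0.39 when scaled to long genes, a setting described below. In gCap cells, 2 of the 6 members that passed the filter did not overlap between groups, and among all genes tested there 13.6% lay above RA without overlap. Pde4d is among these 2, and its difference there led to the choice of the genes. Pde3a, the other, spans 258 kb, while the 13.6% is over genes of all lengths. In gCap cells, 86.6% of genes of 200 to 500 kb other than the members had a positive log2 difference.

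The other 4 of those 6 overlapped in gCap cells. Pde4b was at 7.28 ± 1.89 in CS and 6.30 ± 2.06 in RA mice, with RA mouse 4 the highest of all at 9.38. Its log2 difference of 0.19 (SE 0.217) was -0.08 when scaled to long genes. Pde4a was at 0.589 ± 0.172 and 0.736 ± 0.493, Pde5a at 0.566 ± 0.0627 and 0.552 ± 0.0642, and Pde8a at 1.2 ± 0.110 and 1.02 ± 0.127. The remaining 3 genes, Pde3b, Pde1a and Pde7b, did not pass the filter and were below 0.1 in every mouse.

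**Figure D2:**
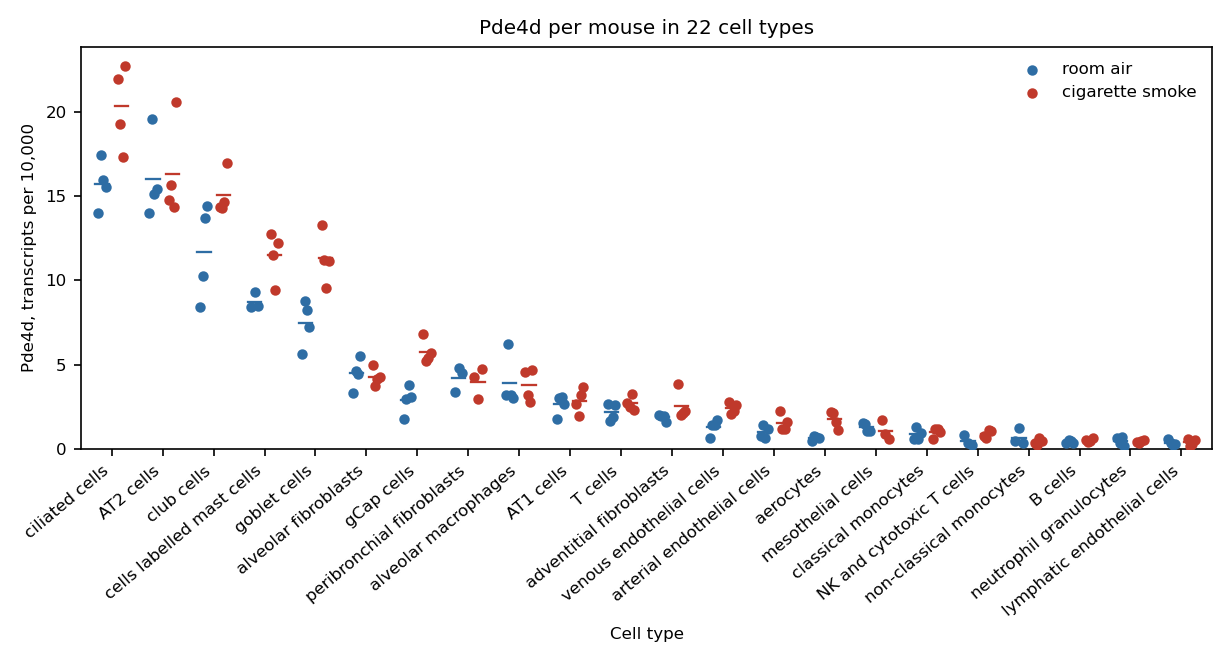
Pde4d in transcripts per 10,000 (y axis) in each mouse (points) and 22 cell types (x axis, ordered by mean level), for mice with at least 20 cells of the type, with bars at the group means. In gCap cells the 4 CS mice lie between 5.24 and 6.80 and the RA mice between 1.74 and 3.81, while AT2 cells of both groups overlap.

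Outside gCap cells, Pde4d rose in aerocytes. It was at 2.15, 2.10, 1.56 and 1.14 in CS mice 1 to 4 against 0.472, 0.738, 0.673 and 0.659 in RA mice 1 to 4. All 4 CS mice exceeded all 4 RA mice, and the means of 1.74 ± 0.481 and 0.635 ± 0.114 stood 2.73-fold apart. The log2 difference was 0.73 (SE 0.112, adjusted p = 0.0154 by limma). An exact two-sided permutation test over mice gave p = 0.0286, the smallest that 4 against 4 allows. Of all genes tested in aerocytes, 0.974% were called higher and 0.989% lower. Among the 57 genes of at least 500 kb other than the members, the length class of Pde4d, 7 were called higher and 0 lower. With a pseudocount of 0.1 in place of 1, the log2 difference was 1.29.

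The adjusted p of Pde4d in aerocytes moved past 0.05 without CS mouse 1 (0.0527), without CS mouse 2 (0.0572) and without RA mouse 4 (0.0526), and over all alternatives it ran from 0.00812 to 0.123, the highest with no filter on low values. That the difference is greater than in other types was not shown. In exact permutation tests of aerocytes against each of 20 other types outside gCap, none passed over the 20 (smallest adjusted p = 0.114). Aerocytes were chosen for these tests because they held the call, and with at most 4 mice a group no single pair could go below 0.0286.

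In venous and arterial endothelial cells Pde4d had the same sign without passing the test, and in lymphatic endothelial cells it hardly differed (log2 difference 0.04, adjusted p = 0.935 by limma). In venous cells it was at 2.80, 2.04, 2.22 and 2.59 in CS mice and at 0.629, 1.42, 1.39 and 1.71 in RA mice. These groups did not overlap, as was the case for 5.87% of genes tested in venous cells, and the log2 difference of 0.60 had an adjusted p of 0.111 by limma. In arterial cells the groups overlapped, with a log2 difference of 0.35 and an adjusted p of 0.294 by limma. These 3 types were added to the description after their values were seen.

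In the 2 types with the highest Pde4d, the difference was smaller or near 0. Ciliated cells had 21.98, 19.3, 17.3 and 22.7 in CS mice and 14.0, 17.5, 15.9 and 15.5 in RA mice, with a log2 difference of 0.35 (SE 0.103, adjusted p = 0.0789 by limma). Only CS mouse 3 fell within the RA range. AT2 cells, the cells that make surfactant, had 14.8, 15.6, 14.4 and 20.6 in CS mice against 14.0, 19.6, 15.2 and 15.4 in RA mice. The AT2 difference of 0.02 on the log2 scale (SE 0.145) had an adjusted p of 0.985 by limma.

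Pde3a rose in arterial endothelial cells. Its levels were 26.5, 24.4, 20.4 and 24.8 in CS mice 1 to 4, and 9.56, 14.9, 14.9 and 15.7 in RA mice 1 to 4. The groups did not overlap, and the means of 24.0 ± 2.56 and 13.7 ± 2.82 stood 1.75-fold apart, with a log2 difference of 0.78 (SE 0.163, adjusted p = 0.0342 by limma). The exact permutation p was 0.0286, again the smallest possible. In arterial cells 0.341% of all genes tested were called higher, and 4.32% lay above RA without overlap. Among the 385 genes of 200 to 500 kb other than the members, the length class of Pde3a, 8 were called higher and 1 lower. RA mouse 1 was far below the other 3, and without it the log2 difference was 0.63 (adjusted p = 0.0403).

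This call of Pde3a was the less firm of the 2. The adjusted p passed 0.05 without CS mouse 1 (0.140), 2 (0.130), 3 (0.0618) or 4 (0.123), without RA mouse 2 (0.0572) and with the sequencing lane as a block (0.102), and it ran from 0.0125 to 0.305 over all alternatives. Arterial markers also separated the groups. The summed level of the 4 arterial genes (Gja5, Gja4, Bmx and Dkk2) was 7.14 to 9.66 in CS and 4.39 to 7.04 in RA mice, although none of the 4 passed the test, and the number of arterial cells was 84 to 173 in CS and 40 to 70 in RA mice. In these arterial cells the 5 gCap markers summed to 48.4 to 52.6 in CS and 41.3 to 55.2 in RA mice, against at least 56.1 in gCap cells. Venous markers summed to 38.6 to 44.3 in CS and 36.3 to 48.2 in RA mice. Club markers summed to 2.16 to 107.6 in CS and 0.413 to 8.16 in RA mice. The part of these measures in the result was not tested.

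Venous endothelial cells, the other type with high Pde3a, had 25.7, 18.3, 14.3 and 17.2 in CS mice and 6.22, 11.6, 14.3 and 18.0 in RA mice. These overlapped, and the log2 difference of 0.61 (SE 0.270) had an adjusted p of 0.315 by limma. Without RA mouse 1 the difference was 0.33. In aerocytes, a type with low Pde3a that was added after its values were seen, it was at 1.65, 1.69, 1.42 and 1.47 in CS mice and at 1.01, 1.26, 1.40 and 0.877 in RA mice, with no overlap and an adjusted p of 0.0962 by limma. Of the 5 members tested in aerocytes 4 lay above RA with no overlap (Pde4d, Pde3a, Pde4b and Pde5a), where 8.71% of all genes tested did. All 5, Pde1a included, are among the 8 long members described below, whereas the 8.71% is over genes of all lengths. In aerocytes 80.4% of genes of 100 to 200 kb had a positive log2 difference, against 23.3% of genes shorter than 10 kb.

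Pde4b in aerocytes was at 11.7, 11.5, 11.9 and 12.9 in CS mice and at 6.60, 10.2, 10.8 and 9.53 in RA mice. The log2 difference of 0.36 (SE 0.139) did not pass across genes (adjusted p = 0.153 by limma). It was 0.22 without RA mouse 1 and 0.07 when scaled to long genes. In neutrophil granulocytes, its highest type, Pde4b hardly differed, at 22.1 ± 1.98 in CS and 21.5 ± 3.86 in RA mice (log2 difference 0.05, SE 0.155, adjusted p = 0.929 by limma).

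Pde7b in neutrophil granulocytes was at 17.0, 18.9, 16.4 and 17.7 in CS mice and at 10.1, 14.8, 14.2 and 13.2 in RA mice. The groups did not overlap, which held for 5.25% of genes tested there. Its log2 difference of 0.41 (SE 0.146) had an adjusted p of 0.272 by limma and was 0.18 when scaled to long genes, whose summed level was 611 to 668 in CS and 492.7 to 607 in RA neutrophil granulocytes. In lymphatic endothelial cells Pde7b overlapped, at 7.11 ± 1.12 and 5.46 ± 1.68.

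Pde4a in alveolar fibroblasts was at 2.56, 3.81, 2.74 and 2.27 in CS mice and at 1.07, 2.19, 1.71 and 2.52 in RA mice. The log2 difference of 0.43 (SE 0.159) had an adjusted p of 0.145 by limma. It was 0.29 without RA mouse 1 and 0.25 when scaled to long genes. In arterial cells Pde4a was at 1.86 ± 0.506 and 1.28 ± 0.800, and RA mouse 1 was the highest of all at 2.43.

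Pde3b in its lymphocytes did not pass the test. In B cells it was at 8.67 ± 1.97 in CS and 8.88 ± 0.393 in RA mice, and in T cells at 6.85 ± 1.0 and 5.90 ± 0.247 (adjusted p = 0.879 and 0.361 by limma). The SD over CS mice exceeded that over RA mice in both.

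Pde5a and Pde1a in peribronchial fibroblasts could be compared in 3 mice a group only. Pde5a was at 2.46 ± 0.881 in CS and 1.76 ± 0.202 in RA mice. Pde1a was at 6.83 ± 4.41 and 4.48 ± 0.275, with CS mouse 4 at 11.9 from 23 cells and the other 2 CS mice at 3.71 and 4.90. In alveolar fibroblasts Pde5a was at 1.14 ± 0.184 and 0.871 ± 0.158 (log2 difference 0.20, SE 0.0839, adjusted p = 0.196 by limma), and its difference was 0.06 when scaled to long genes. Pde1a in aerocytes was at 1.99 ± 0.275 and 1.71 ± 0.586 (adjusted p = 0.451 by limma).

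Pde8a did not pass in lymphatic endothelial cells, at 2.80 ± 0.565 in CS and 2.24 ± 0.353 in RA mice (log2 difference 0.22, SE 0.149, adjusted p = 0.650 by limma). The difference was 0.14 without RA mouse 1 and 0.08 when scaled to long genes. In non-classical monocytes it was at 1.96 ± 0.213 (n = 4) and 1.86 ± 0.283 (n = 3).

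**Figure D3:**
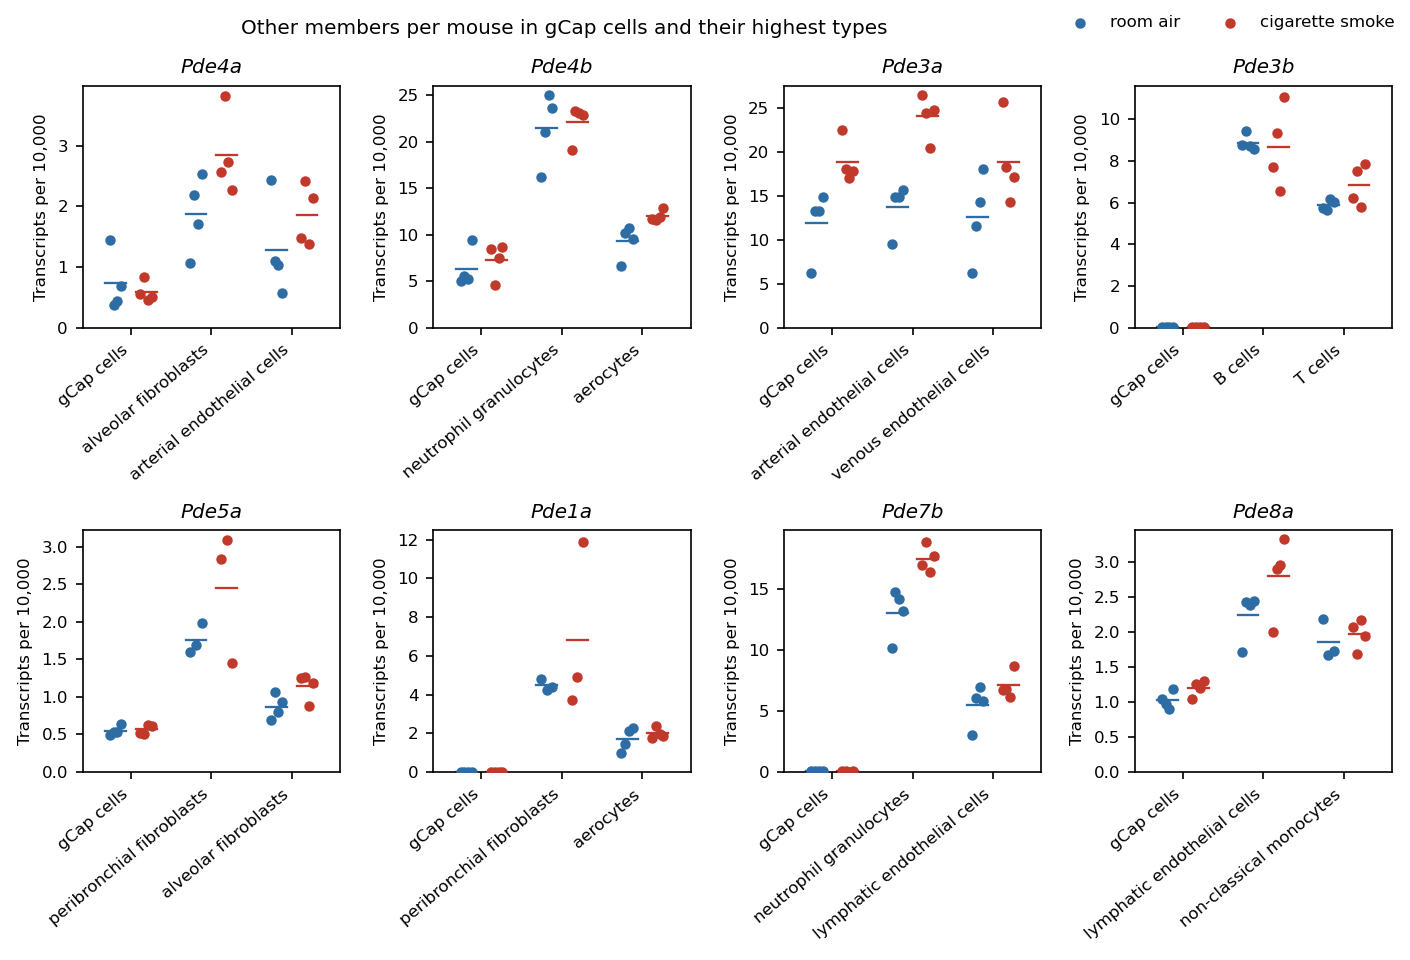
Levels in transcripts per 10,000 (y axis) of the other 8 genes in each mouse (points, RA left and CS right) in gCap cells and in the gene's 2 other highest tested types (x axis), with bars at group means. Pde3a in arterial cells spans 20.4 to 26.5 in CS and 9.56 to 15.7 in RA mice, and Pde7b in neutrophil granulocytes 16.4 to 18.9 and 10.1 to 14.8.

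Over all 21 tested types outside gCap, the 9 genes gave 123 tests, of 189 possible pairs of gene and type. Of these, 2 were called higher and 0 lower, the calls described above. Among all genes in the same types, 0.491% of tests were called higher and 0.381% lower. These shares are over genes of all lengths, and long genes were called higher more often in aerocytes and arterial cells, as given above. At an unadjusted p under 0.05 by limma there were 29 member tests, all 29 of them higher in CS, or 23.6% of member tests. Of all gene tests, 14.4% had such a p in either direction and 8.47% were higher in CS. The log2 difference was positive in 90 member tests (73.2%) and negative in 33, against 54.3% positive over all genes. The median was 0.08 for the members and 0.01 for all genes. Of the 9 members, 8 span at least 120 kb, and longer genes were more often higher in CS in several types, as described below. Among genes of like length in the same types, averaged over the 123 tests, 71.7% were positive and 20.1% were higher at an unadjusted p under 0.05, so the members as a group lay close to genes of their length. The tests share the same 8 mice and neighbouring cell types, and are not independent.

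By gene, Pde4d was tested in all 21 types, with 7 at an unadjusted p under 0.05 and a range of -0.20 to 0.73 on the log2 scale. Pde4a had a positive difference in all 14 types tested outside gCap, up to 0.43, but a negative one (-0.09) in gCap cells. Pde4b was higher in 10 and lower in 9 types, with differences from -0.30 to 0.60. Pde8a had 13 of 19 positive, Pde3b 10 of 14 and Pde7b 10 of 13. Pde3a was tested in 7 types, and Pde5a and Pde1a in 8 each, with 6 positive in each of the 3 genes.

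**Figure D4:**
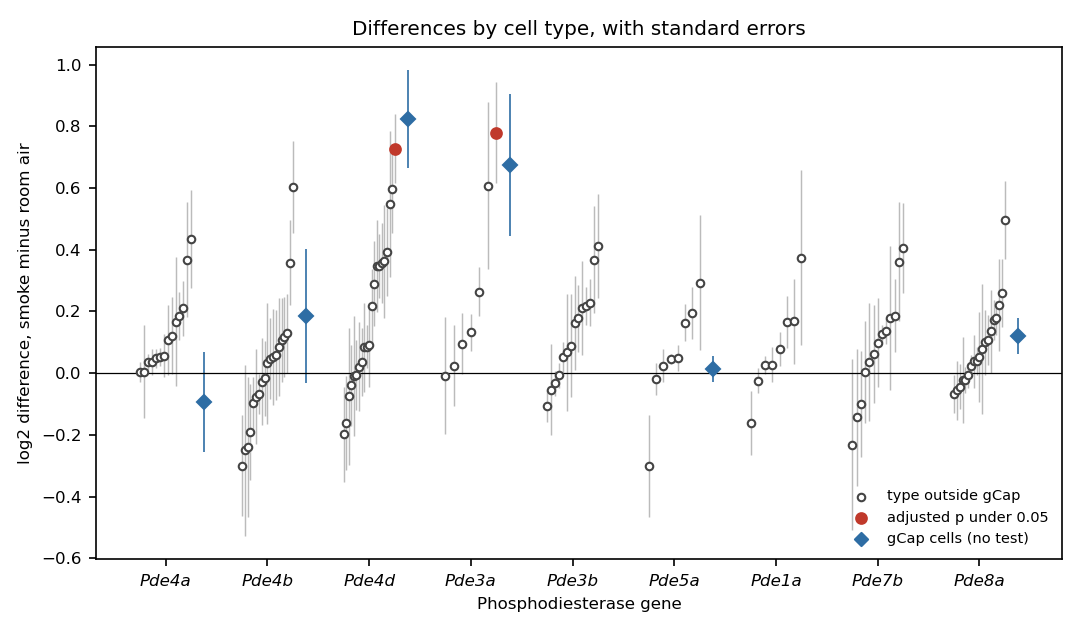
Log2 difference, CS minus RA (y axis, with limma standard errors), of each gene (x axis) in each tested cell type. Open points are types outside gCap, filled red points the 2 that passed an adjusted p of 0.05 (Pde4d in aerocytes at 0.73 and Pde3a in arterial cells at 0.78), and blue diamonds gCap cells for the 6 genes that passed the filter there, which were not tested.

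The size of the gene moved with the difference between CS and RA over all genes in most of the types tested, endothelial or not. In gCap cells the median log2 difference was -0.08 for genes shorter than 10 kb, 0.07 for genes of 50 to 100 kb, 0.16 for genes of 200 to 500 kb and 0.21 for genes of at least 500 kb, the members left out. In aerocytes the same 4 medians were -0.06, 0.05, 0.14 and 0.22, and in arterial cells -0.06, 0.05, 0.13 and 0.21. The medians of genes shorter than 10 kb and of at least 500 kb were -0.05 and 0.24 in adventitial fibroblasts, -0.09 and 0.21 in B cells, -0.09 and 0.16 in T cells, and -0.03 and 0.20 in venous cells. AT2 cells showed no such trend, with medians of 0.00171 to 0.00684 in all length bins, and alveolar macrophages hardly any, with -0.00967 to 0.045. The summed level of genes of at least 200 kb, members left out, was 1438 to 1570 per 10,000 in gCap cells of CS mice and 1080 to 1302 in RA mice. It was 1552 to 1634 against 1007 to 1474 in aerocytes, and 1343 to 1465 against 1010 to 1287 in arterial cells. In none of these 3 types did the groups overlap, and RA mouse 1 had the lowest sum in each.

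Pde4d is one of the long genes. It spans 1504 kb on the plus strand of chromosome 13 (GRCm38, 108449948 to 109953461), and annotated exons cover 0.799% of it. The deposited values include unspliced transcripts, so reads from its introns were counted. Pde3a spans 258 kb of chromosome 6 (141249269 to 141507448), with exons over 4.93%, and Pde4b 520 kb of chromosome 4 (102087543 to 102607259). Pde7b spans 327 kb, Pde1a 295 kb, Pde5a 130 kb, Pde3b 124 kb, Pde8a 121 kb and Pde4a 47.5 kb.

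Among genes of like length, Pde4d had rank 3 of 59 in aerocytes by its log2 difference. It had rank 4 of 80 in venous and rank 22 of 77 in arterial cells. In gCap cells Pde4d had rank 1 of 64, but its difference there led to the choice of the genes. A high rank in gCap cells follows from that choice and cannot show whether Pde4d exceeds genes of its length. Among genes of 200 to 500 kb, Pde3a had rank 6 of 352 in gCap, rank 3 of 386 in arterial and rank 81 of 343 in aerocytes. In the bin of at least 500 kb, Pde4b had rank 18 of 59 in aerocytes and rank 35 of 64 in gCap cells. These are descriptions.

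When each mouse was scaled to the same summed level of these long genes, a setting added after the data were seen, the log2 difference of Pde4d was 0.58 in gCap cells and 0.58 in aerocytes (adjusted p = 0.0723 by limma), and that of Pde3a in arterial cells was 0.48 (adjusted p = 0.107 by limma). The difference of Pde4d in ciliated cells was then 0.21 and that of Pde3a in venous cells 0.32. No member outside gCap was called, and the median of all genes shifted to -0.11 in aerocytes and to -0.10 in gCap cells. The part of gene length in the 2 calls was otherwise not tested.

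**Figure D5:**
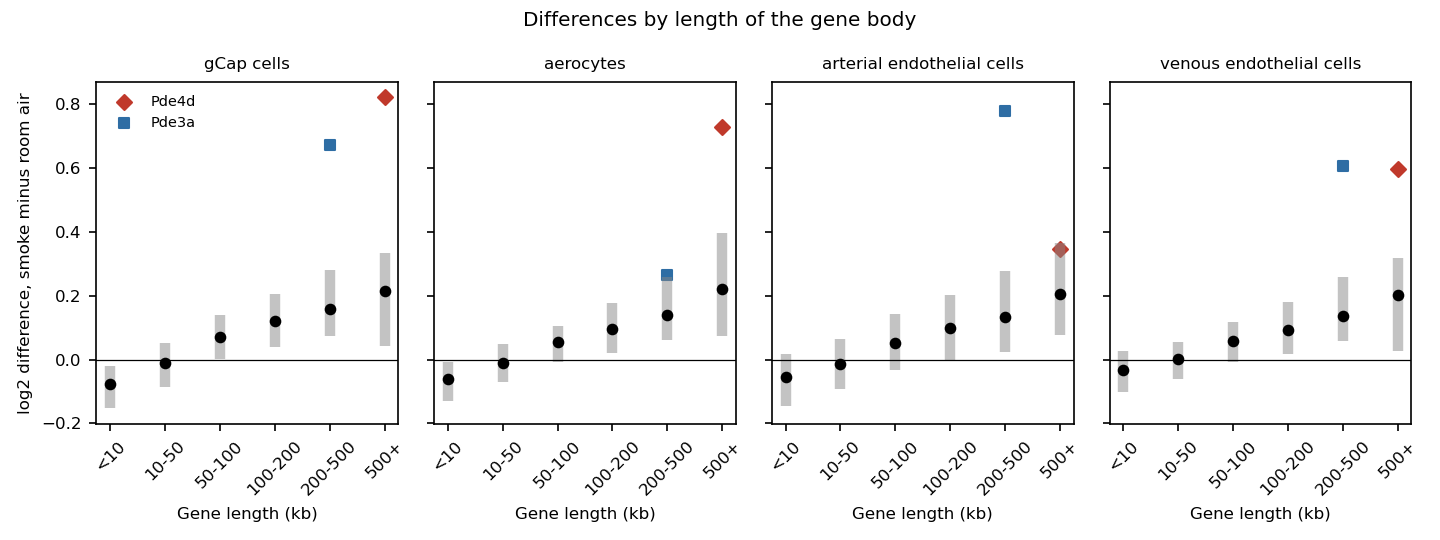
Log2 difference, CS minus RA (y axis), by length of the gene body in kb (x axis) in 4 endothelial types, with the median (black points) and the middle range from the 25th to the 75th percentile (grey bars) over all genes tested other than the members. Pde4d (red) lies at 0.82 in gCap cells, the comparison behind the choice of these genes, and at 0.73 in aerocytes. These values are above the medians of 0.21 and 0.22 of genes of at least 500 kb. Pde3a (blue) lies at 0.78 in arterial cells, above the median of 0.13 of its length bin.

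Other measures in the same cells were as follows. Median transcripts per cell in gCap cells were 3482 to 4925 in CS and 3024 to 5226 in RA mice, and the mitochondrial share was 0.709% to 1.52% and 0.870% to 1.24%. Neat1, a nuclear noncoding RNA, was at 3.31 to 3.81 in gCap cells of CS mice and at 4.83 to 7.13 in RA mice. It separated the groups in the same direction in aerocytes, at 3.55 to 3.91 against 4.60 to 5.64, and in arterial cells, at 4.72 to 5.84 against 8.98 to 13.8. Malat1, also nuclear, was at 254 to 275 in CS and 277 to 339 in RA mice in arterial cells. The part of these RNAs in the results was not tested. In aerocytes, transcripts per cell and the mitochondrial share overlapped between groups as well. The summed level of 5 gCap markers in aerocytes was 0.791 to 1.57 in CS and 0.869 to 4.34 in RA mice. In gCap cells themselves this sum was 56.1 to 63.6 in CS and 60.9 to 66.5 in RA mice, and its part in the results was not tested. The sums of AT2 markers, a type with high Pde4d, were 0.420 to 1.36 and 0.350 to 1.57 in aerocytes, and ciliated markers were 0.0846 to 0.158 and 0.0527 to 0.244. Markers of club cells, the third type by Pde4d, summed to 1.06 to 23.0 in aerocytes of CS mice and 0.2 to 9.56 in RA mice, which overlapped but reached higher in CS mice, and their part in the result was not tested. None of the marker genes of these 4 lists that could be tested in aerocytes passed.

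The genes around the PDEs in the pathway were taken as 6 lists, chosen with earlier results known. Outside gCap cells they gave 836 tests with 6 called higher and 4 lower, against 0.491% and 0.381% of tests of all genes. The calls were only slightly more frequent than among all genes, and those named below are no result about the pathway as a whole. When 1 mouse at a time was left out, the count higher ran from 2 to 4 and the count lower from 0 to 4.

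Among the receptors that raise cAMP, Calcrl, the receptor of adrenomedullin and calcitonin gene-related peptide, rose in alveolar macrophages by 0.93 (SE 0.174, adjusted p = 0.0140 by limma). The mitochondrial share of these macrophages was 1.40% to 2.55% in CS and 1.195% to 1.47% in RA mice, with only CS mouse 4 within the RA range, and its part in the result was not tested. Adrb3, a beta-adrenergic receptor, fell in ciliated cells by 0.25 (adjusted p = 0.0368 by limma), at a low level of 0.0882 to 0.144 in CS and 0.187 to 0.478 in RA mice.

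Among cyclases, Adcy7 rose in adventitial fibroblasts (log2 difference 0.39, adjusted p = 0.0360 by limma). In these fibroblasts the summed level of genes of at least 200 kb was 1113 to 1240 in CS and 816 to 1012 in RA mice, and its part in this result and in that of Pde10a below was not tested. Among effectors, Prkg1, the cGMP-dependent kinase, rose in arterial endothelial cells by 0.63 (SE 0.137, adjusted p = 0.0438 by limma). It reached 86.8 to 97.5 in CS and 46.1 to 68.8 in RA mice, and at 1201 kb it is a long gene like Pde4d. Prkar1b, a regulatory subunit of protein kinase A, rose in AT1 cells by 0.25 (adjusted p = 0.0352 by limma). In AT1 cells the mitochondrial share also separated the groups, at 2.13% to 3.16% in CS and 1.58% to 1.92% in RA mice, as did Malat1 at 459 to 578 and 603 to 664. Their part in the AT1 results, Dusp1 below included, was not tested.

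Of the genes that CREB can induce, Fos fell in ciliated cells by 0.70 (SE 0.164, adjusted p = 0.0399 by limma) and Dusp1 fell in AT1 cells by 0.72 (SE 0.163, adjusted p = 0.0319 by limma). Both genes are also immediate early genes that respond to tissue dissociation. Abcc4, a pump that exports cyclic nucleotides, rose in ciliated cells by 0.20 (adjusted p = 0.00608 by limma), and its gene is long, at 223.5 kb. In ciliated cells the summed level of genes of at least 200 kb was 1070 to 1123 in CS and 846 to 1066 in RA mice, and Malat1 was at 86.0 to 97.0 and 108 to 132. Their part in the ciliated results was not tested.

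Among 14 PDE genes other than the members, Pde6h was called higher in ciliated cells (log2 difference 0.24, adjusted p = 0.0124 by limma) and Pde10a was called lower in adventitial fibroblasts, where it fell by 0.41 (adjusted p = 0.0421 by limma). Of those 14, 3 could be tested in gCap cells and 4 in aerocytes. Pde8b was highest in aerocytes at 8.91 ± 1.0, and Pde7a in NK and cytotoxic T cells at 6.28 ± 0.729.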

How the data were processed

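Single-cell libraries (10x Genomics 3′ v3) of 8 lungs were used. Reads were aligned by the authors to GRCm38.p6 with STAR 2.7.3a and STARsolo, cell-free RNA was removed with SoupX, and cell types were named. The deposited matrix is called normalized but holds estimated counts of transcripts, spliced and unspliced, after that removal: only 1.28% of the values are whole (tolerance 1e-06). The mitochondrial share is a percent that the authors deposited per cell.

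Each cell was scaled to 10,000 transcripts and averaged per mouse and type. Tests used limma 3.58.1 with a trend (R 4.3.3) on log2(mean + 1), which replaced a count model because the counts are not whole. The fit was also run on simulated counts. These held no trend with gene length, so that run cannot speak to the trend in these data. Exact two-sided permutation tests of single values were run (SciPy 1.17.1). Total transcripts per mouse were 31094695 to 52753531 in the cells used. Intervals from replicate mice hold counting error and differences between mice. Cells of 1 mouse are not replicates.

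The 9 genes and the gene lists were chosen with earlier results of these data known. Named were all members, in gCap cells, in their 2 other highest tested types and where they passed, and the 10 pathway genes called outside gCap cells, the limit set. Added after their values were seen were Pde3a in aerocytes, Pde4d in venous, arterial and lymphatic endothelial cells, Pde5a in pericytes and Pde4b in smooth muscle cells. Gene lengths come from GENCODE annotation of GRCm38, which matched 32507 of 33027 symbols. Alternatives were the pseudocount, the filter, summed counts, the sequencing lane as a block (each lane held 1 CS and 1 RA mouse), labelled sex, quantile normalization, at least 50 cells, adjustment over all types, each mouse left out and, added later, scaling to long genes.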

Additional observations from a re-analysis of the deposited data

Results flagged for a closer look

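In 4 of 51 groups of 4 mice checked, 1 mouse lay further from the others than Dixon's 95% limit allows, where chance gives about 1 in 20 groups, or 2.55 of 51. Pde4b in gCap cells was at 9.38 in RA mouse 4 and at 5.01 to 5.58 in the other 3 RA mice. Pde4b in neutrophil granulocytes was at 19.1 in CS mouse 1 and at 22.8 to 23.3 in the other 3 CS mice. Pde3a in arterial endothelial cells was at 9.56 in RA mouse 1 and at 14.9 to 15.7 in the other 3 RA mice. RA mouse 1 also had the lowest summed level of long genes in these cells, 1010 per 10,000. Of the RA mice, RA mouse 1 was lowest by this sum in most other types too. These include gCap cells (1080), aerocytes (1007), and venous (933) and lymphatic (1011) endothelial cells. Pde8a in lymphatic endothelial cells was at 1.71 in the same RA mouse 1, from 35 cells, and at 2.39 to 2.44 in the other 3 RA mice.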

How the results depend on the processing

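With no filter on low values, Pde4d in aerocytes (0.73) and Pde3a in arterial endothelial cells (0.78) kept their log2 differences but not their calls, so that 0 members were called. The pathway counts fell to 2 higher and 0 lower. In this setting more genes enter both the limma fit and the adjustment. With the lane as a replicate block, Pde3a in arterial cells (0.78) lost its call and 1 member call was left, as with at least 50 cells, where arterial cells have too few. Scaling to long genes left 0.58 for Pde4d in aerocytes, 0.48 for Pde3a in arterial cells and 0 calls. Leaving out 1 mouse gave 0.65 to 0.84 for Pde4d in aerocytes, 0.63 to 0.85 for Pde3a in arterial cells, 0 to 4 member calls higher (0 lower), and 2 to 4 pathway genes higher and 0 to 4 lower.

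Some uncalled differences turned sign. Scaling to long genes gave -0.18 for Pde4b in neutrophil granulocytes, -0.0317 for Pde3b in T cells, -0.0229 for Pde1a in aerocytes and -0.00644 for Pde8a in non-classical monocytes. In gCap cells it gave, among others, -0.0833 for Pde4b (from 0.19) and -0.0976 for Pde5a (from 0.01). This setting lowers most genes together (in gCap cells the median of all genes moved to -0.103), and the turns are no result about the members. Without RA mouse 1, Pde4a in gCap cells turned from -0.09 to 0.08, and leaving out 1 mouse gave -0.00459 to 0.04 for Pde5a. Quantile normalization gave -0.11 for Pde4d in AT2 cells, and the lane block -0.0151 for Pde1a in peribronchial fibroblasts. Leaving out 1 mouse gave -0.0694 to 0.13 for Pde4b in neutrophil granulocytes, -0.0894 to 0.12 for Pde4d in AT2 cells, -0.17 to 0.0586 for Pde3b in B cells and -0.0546 to 0.67 for Pde1a in peribronchial fibroblasts. The cause was not tested. Labelled sex as a covariate ended no member call, though that label is in doubt in CS mice.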

Other observations

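Pde5a was highest in pericytes, which could not be tested because most mice had fewer than 20 of them. Its level was 50.5, 43.5, 47.7 and 47.2 in CS mice 1 to 4, from 3, 10, 10 and 22 cells. In RA mice 1 to 4 it was 15.8, 26.6, 41.0 and 27.1, from 126, 84, 13 and 4 cells. RA mice had up to 126 pericytes and CS mice at most 22, and the 2 RA mice with the most pericytes had the lowest levels. Pde4b in smooth muscle cells, also untested with 4 to 35 cells per mouse, was at 1.29 ± 0.532 in CS and 2.59 ± 0.180 in RA mice. Both were described after their values were seen.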
